A study of Arabidopsis thaliana with 8 samples.

Results

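The genes described here are those of 7 Arabidopsis families linked to the expansion or modification of the cell wall. They were chosen by symbol, as genes whose probe set carried a single name beginning with EXPA, EXPB, EXLA, EXLB, XTH or TBL with a number, together with COB. The annotation named 50 such genes among 13356 genes with a named probe set, each read by 1 probe set: 10 EXPA, 4 EXPB, 3 EXLA, 1 EXLB, 9 XTH, 22 TBL and COB. A RefSeq gene table lists 114 genes of these families, so the others were not analysed here. Of the 50 genes, 36 were bright enough to test and 14 fell to the filter on dim probe sets, namely EXPA7, EXPA21, EXPA24, EXPB5, XTH21, XTH26, XTH29, TBL15, TBL19, TBL20, TBL21, TBL41, TBL42 and TBL43.

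Shoots of Col-0 seedlings were profiled on 8 one-colour ATH1 arrays, in 4 groups of 2 replicates. Wild type was kept at 22 °C or held at 37 °C for 2 h, and a T-DNA knockout of HSA32 (allele GABI-268A08), which encodes a protein associated with heat stress, was treated the same way. Plants of all 4 groups were 15 days old, and a replicate was its own pool of about 100 plants, per the series' design text. The knockout is a single insertion line. Each array gave 1 intensity per probe set, called its signal here. Whole shoots were used, so fewer cells of a type and less RNA per cell cannot be told apart.

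A growing plant cell enlarges when its wall yields to turgor. Alpha-expansins (EXPA) and beta-expansins (EXPB) loosen contacts between wall polymers without cutting them, whereas the expansin-like EXLA and EXLB proteins share their fold but have no settled wall-loosening activity. XTH enzymes cut and rejoin xyloglucan, the polymer that lies between cellulose fibrils, many TBL proteins add acetyl groups to wall polysaccharides, and COB is a membrane-anchored protein needed for oriented cell expansion.

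HSA32 checked the labels: its signal was 657.3 and 230.0 in wild-type controls, 23174.9 and 9240.3 in heated wild type, 1124.7 and 1246.6 in knockout controls and 378.2 and 589.1 in the heated knockout, so it was high in heated wild type alone. The sources used here do not place its probe set against the insertion. Across probe sets, which are no independent points, replicates correlated at 0.87 in heated wild type and at 0.922 to 0.949 in the other groups. Only 2 of 16 listed shoot markers were named, Rubisco activase RCA and the light-harvesting gene LHCB4.1, and their summed signal was 37556.9 to 39916.3 in wild-type controls, 44337.5 to 71403.0 in heated wild type, 36096.3 to 50341.9 in knockout controls and 44863.1 to 77095.0 in the heated knockout. Of 11 listed root markers only PYK10, a beta-glucosidase gene of roots, was named, with the values given in the next paragraph. None of these 3 markers was at 0.

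The arrays of wild-type replicate 1 stood apart for the wall genes. Wild-type control replicate 1 was the lowest of the 4 control arrays for 29 of 36 tested members (80.6%), beside 32.9% of all tested probe sets. Its median log2 difference from the mean of the other 3 controls was -0.62 over the members and 0.02 over all tested probe sets. XTH18, a xyloglucan-modifying enzyme, lay lowest at -3.05, followed by EXLA2 at -2.79 and TBL45 at -2.44, whereas EXPA16 lay at 1.88. The affected genes came from several families, and 31 of the 36 had negative differences. TBL18 at 0.70, TBL16 at 0.57 and EXPB2 at 0.34 went the opposite way like EXPA16, and TBL25 lay at 0.002.

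These differences, like all fold changes here, are of log2(signal + 29.1), where the added offset shrinks those of dim genes. Within wild-type controls, signal + 29.1 was more than 2 times as high in replicate 2 as in replicate 1 for 13 members (36.1%; 6.11% of all probe sets) and more than 4 times as high for 6 members (0.748% of all probe sets). The 13 were COB, EXLA1, EXLA2, EXLA3, EXPA8, EXPA20, TBL30, TBL45, XTH16, XTH18, XTH19, XTH32 and XTH33. Between the knockout controls only 3 members differed by more than 2 times on this scale in either direction, which were XTH19, EXPA8 and EXPB1. Heated wild-type replicate 1 was the lowest heated array for 18 of 36 members (50%), beside 30.8% of all probe sets. PYK10 moved with this pattern, at 3230.9 and 9286.5 in wild-type controls, 2094.9 and 5230.3 in heated wild type, 9012.9 and 8014.1 in knockout controls and 4965.1 and 5877.5 in the heated knockout. Its part in the pattern was not tested. Results that rest on these arrays are given with and without them.

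**Figure D1:**
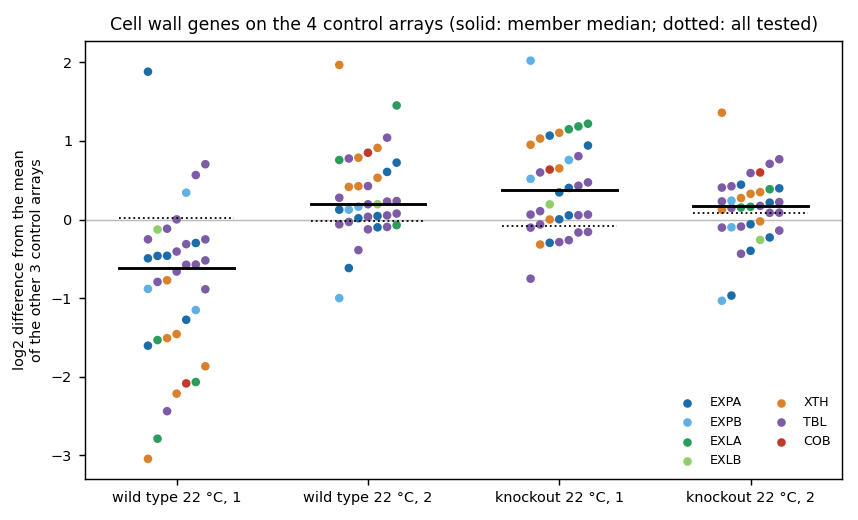
The y axis gives the log2 difference of each tested member on 1 control array from the mean of the other 3 control arrays, with 1 point per gene coloured by family. Solid lines mark the members' median and dotted lines that of all tested probe sets; wild-type control replicate 1 has its members' median at -0.62, below its dotted line at 0.02, while the members' medians of the other 3 arrays lie between 0.17 and 0.37.

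What 2 h at 37 °C did to these genes was compared within each genotype and, by a contrast chosen after the data had been seen, averaged over both. Heat lowered 5 members on average: the alpha-expansins EXPA4 and EXPA9, COB, the xyloglucan enzyme XTH33 and the mannan acetyltransferase TBL23, by 1.14 to 2.65 on the log2 scale. No member rose in any of these comparisons. In wild type alone no member passed, and in the knockout alone COB, EXPA4 and EXPA9 fell. With the replicate number as a block no member fell in wild type either, but a different block changed the count. A crossed block, chosen after the data had been seen, joined same-numbered arrays within a genotype and opposite-numbered ones across genotypes. With it COB, EXPA4, EXPA8 and EXPA9 fell in wild type, 4 of 36 members beside 5.13% of all probe sets. In the knockout EXPA8, TBL23 and TBL28 then fell as well, making 6 of 36 beside 12.2%. The crossed block was chosen from how the arrays of these same data deviated, so its added calls are no separate test of heat.

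In the main fit the 5 of 36 members that fell on average (13.9%) stand beside 12.0% of all tested probe sets that fell and 5.25% that rose. In the knockout the 3 members that fell (8.33%) stand beside 3.66% that fell and 3.13% that rose among all probe sets. In wild type 0.710% of all probe sets fell and 1.84% rose; at an unadjusted p under 0.05, 4 members were lower and 0 higher, beside 11.9% and 5.03% of all probe sets. These shares differ little from the background in the averaged contrast. The median log2 fold change of the 36 members was -0.34 in wild type and -0.46 in the knockout, and that of all tested probe sets was -0.22 and -0.26. Under median centring of each array the last 2 values became 0.10 and 0.07, so a fold change under this scaling reads about 0.3 higher.

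Arrays of heated and control plants did not overlap for 8 members that were lower in wild type (30.5% of all probe sets) and 1 that was higher (13.0%). In the knockout 20 members were lower without overlap (55.6%, beside 40.9% of all probe sets) and 4 were higher (18.0%). All 4 heated arrays lay below all 4 control arrays for COB, EXPA4, EXPA9, TBL23 and TBL25, 5 of 36 members beside 18.7% of all probe sets. No member had all 4 heated arrays above all 4 controls, beside 7.29% of all probe sets.

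**Figure D2:**
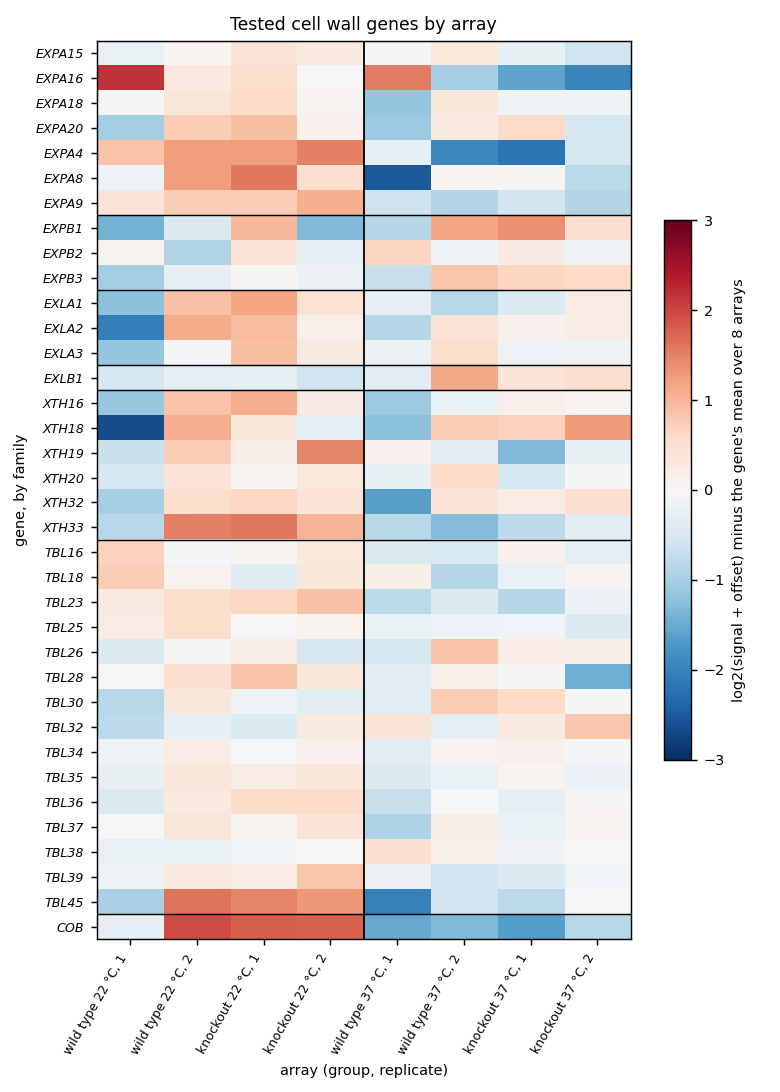
Each row is 1 of the 36 tested members, ordered by family, and each column 1 array, with the 4 control arrays left of the vertical line. Colour gives log2(signal + offset) minus the gene's mean over the 8 arrays; COB, EXPA4 and EXPA9 are above their mean on control arrays and below it on heated ones except where wild-type control replicate 1 lowers COB, and the first column is pale or blue for most members.

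Alpha-expansins had the lowest family medians after COB, and 2 of 7 tested members fell. Their median heat log2 fold change was -0.94 in wild type, with 6 of 7 below 0, and -1.42 in the knockout, with 7 of 7 below 0. EXPA4 (AT2G39700) had signals of 249.8 and 339.8 in wild-type controls, 102.1 and 11.6 after heat, 341.4 and 414.0 in knockout controls and 4.8 and 81.7 after heat. Every heated array lay below every control, but the heated replicates themselves were far apart. The log2 fold change was -2.13 ± 0.65 in wild type (SE, limma adjusted p = 0.14), -2.72 ± 0.65 in the knockout (adjusted p = 0.0435) and -2.43 ± 0.46 on average (adjusted p = 0.00969). Heated signals of 11.6 and 4.8 lie below the offset of 29.1 added before taking logs, so the size of this change depends on the offset. In wild type it was -2.98 without heated replicate 1 (adjusted p = 0.0244) and -1.29 without heated replicate 2 (adjusted p = 0.384).

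EXPA9 (AT5G02260) was the steadiest of the expansins that fell. It read 226.6 and 298.9 in wild-type controls and 98.6 and 77.3 after heat, and 296.6 and 380.5 in knockout controls and 103.8 and 76.8 after heat. Control and heated arrays were clearly parted in both genotypes. The change was -1.31 ± 0.33 in wild type (adjusted p = 0.0836), -1.62 ± 0.33 in the knockout (adjusted p = 0.0236) and -1.47 ± 0.23 on average (adjusted p = 0.00435), which is 2.77-fold lower.

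The other 5 alpha-expansins did not pass. EXPA8 read 1075.9 and 2908.8 in wild-type controls, 188.5 and 1292.4 after heat, 3705.8 and 1714.4 in knockout controls and 1247.9 and 681.5 after heat. The wild-type replicates overlapped between temperatures, and the average change was -1.59 ± 0.59 (adjusted p = 0.0982). EXPA16 read 1030.9 and 260.1 in wild-type controls and 671.9 and 90.3 after heat, so replicate 1 was the higher one at both temperatures. In the knockout EXPA16 read 312.7 and 212.0 at 22 °C and 50.1 and 31.0 after heat, a change of -2.06 ± 0.82 (adjusted p = 0.174). EXPA15 differed in sign between genotypes, at 0.21 ± 0.32 in wild type and -0.76 ± 0.32 in the knockout. EXPA20 and the root-hair expansin EXPA18 had averages of -0.37 and -0.52. EXPA18 read only 23.3 to 144.5 over the 8 arrays, and the other root-hair expansin, EXPA7, was dim throughout, at 96.8 or lower.

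COB (AT5G60920), which guides the direction of cell expansion, had the lowest heat log2 fold change of the 36 members in both genotypes. Its signals were 971.4 and 4571.6 in wild-type controls, 386.2 and 444.9 in heated wild type, 4086.8 and 4008.3 in knockout controls and 346.5 and 639.1 in the heated knockout. All 4 heated arrays lay below all controls, and among the controls only wild-type replicate 1 was low. COB changed by -2.27 ± 0.64 in wild type (adjusted p = 0.115) and fell by 3.02 ± 0.64 in the knockout (adjusted p = 0.0284), which is 8.14-fold. On average it fell by 2.65 ± 0.45 (adjusted p = 0.00621). The change in wild type depended on which control array was kept. It was -3.37 ± 0.47 without control replicate 1 (adjusted p = 0.0122), -3.28 ± 0.49 without both arrays of replicate 1 (adjusted p = 0.0076) and -1.17 ± 0.48 without control replicate 2 (adjusted p = 0.438). The annotation named no other member of the COBRA-like family with a number.

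**Figure D3:**
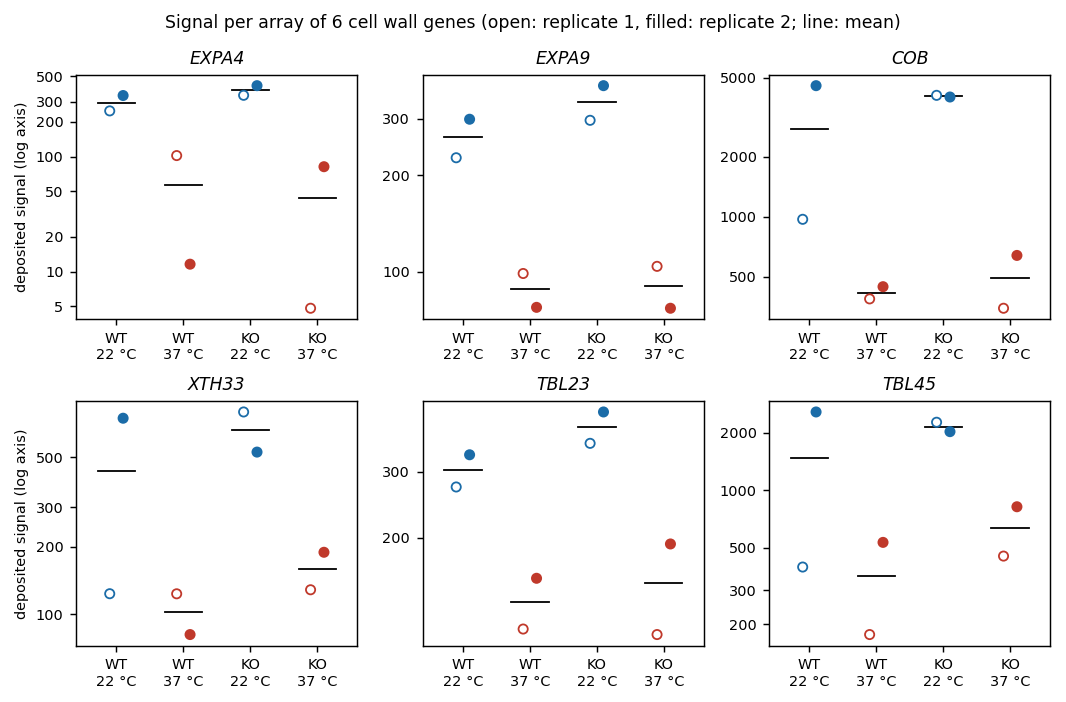
Each panel shows 1 gene, with the deposited signal on a log axis for the 2 arrays of each group (WT, wild type; KO, knockout; blue, 22 °C; red, 37 °C). Open circles are replicate 1, filled circles replicate 2 and lines the group means; the open blue circle of wild type is low for COB, XTH33 and TBL45 and close to its replicate for EXPA4, EXPA9 and TBL23.

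In the XTH family 1 of 6 tested members fell on average, and 5 had average changes below 0. Medians were -0.26 in wild type and -0.52 in the knockout. XTH33 (AT1G10550) read 123.4 and 745.5 in wild-type controls, 123.3 and 81.2 after heat, 794.9 and 526.9 in knockout controls and 128.5 and 188.7 after heat. Wild-type control replicate 1 lay within the range of the heated arrays, unlike the other 3 controls. The change was -1.41 ± 0.66 in wild type (adjusted p = 0.322), -1.87 ± 0.66 in the knockout (adjusted p = 0.129) and -1.64 ± 0.47 on average (adjusted p = 0.0439). The wild-type change was -2.58 without control replicate 1 (adjusted p = 0.0379), -2.81 ± 0.48 without both arrays of replicate 1 (adjusted p = 0.0134) and -0.23 without control replicate 2 (adjusted p = 0.868). The averaged call was lost under 10 alternatives, among them quantile normalization, where it was -1.44 (adjusted p = 0.0845), and the omission of wild-type control replicate 2, where it was -1.05 (adjusted p = 0.0724).

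XTH18 and XTH19, neighbours on chromosome 4, had fold changes of opposite sign in the knockout, and neither passed. XTH18 read 614.6 and 390.0 in knockout controls and 796.2 and 1212.3 after heat, a change of 0.96 ± 1.08. XTH19 read 147.4 and 393.0 in knockout controls and 32.5 and 101.7 after heat, a change of -1.60 ± 0.61 (adjusted p = 0.153). In wild type XTH18 read 51.5 and 1062.2 at 22 °C and 186.8 and 841.9 after heat, so its replicates differed more than its temperatures did. Its wild-type change of 0.55 ± 1.08 became -1.33 without control replicate 1. XTH16, XTH20 and XTH32 had average changes of -0.54, -0.12 and -0.26, each smaller than 2 standard errors.

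Among the 15 tested TBL genes 1 fell on average, and the family medians of -0.37 and -0.28 were near those of all probe sets. TBL23 (AT4G11090), a mannan acetyltransferase, read 273.1 and 332.6 in wild-type controls, 114.5 and 156.2 after heat, 356.7 and 432.2 in knockout controls and 110.7 and 192.7 after heat. All heated arrays lay below all controls. It changed by -1.02 ± 0.35 in wild type (adjusted p = 0.186), -1.26 ± 0.35 in the knockout (adjusted p = 0.0674) and -1.14 ± 0.25 on average (adjusted p = 0.0162). The averaged call was lost under quantile normalization (-0.85, adjusted p = 0.0531), under median centring (-0.82, adjusted p = 0.0617) and on leaving out heated knockout replicate 1 or replicate 2 of either genotype's controls (adjusted p from 0.0649 to 0.0717).

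TBL45 had the lowest TBL fold change in both genotypes but did not pass. It read 397.5 and 2575.5 in wild-type controls, 176.2 and 535.0 after heat, 2275.4 and 2031.7 in knockout controls and 453.6 and 821.9 after heat. Again wild-type control replicate 1 was low and overlapped the heated arrays. The changes were -1.63 ± 0.80 and -1.77 ± 0.80, with -1.70 ± 0.56 on average (adjusted p = 0.0707). TBL45 fell in wild type by 2.21 (adjusted p = 0.0382) in a fit that left out both arrays of wild-type replicate 1. Its wild-type change was -2.94 without control replicate 1 (adjusted p = 0.0787) and -0.33 without control replicate 2 (adjusted p = 0.867).

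Close relatives of TBL23 did not pass. TBL25, which also acetylates mannan, read 2072.2 and 2590.4 in wild-type controls, 1544.9 and 1637.2 after heat, 1778.9 and 1922.4 in knockout controls and 1674.7 and 1329.3 after heat. The temperatures were parted without overlap, but the average change was only -0.42 ± 0.22 (adjusted p = 0.225). TBL26, another mannan acetyltransferase, had an average change of 0.37 ± 0.34. Whether these genes differed from TBL23 was not tested. Of the tested xylan acetyltransferases, TBL28 averaged -0.83 ± 0.36, TBL35 -0.35, TBL34 -0.11, TBL30 0.48 and TBL32 0.59 ± 0.29, and none passed. TBL32 had the highest fold change of the TBL genes in both genotypes, at 0.58 ± 0.41 and 0.60 ± 0.41, and its probe set is of a type that can read more than 1 related transcript. The other 6 tested TBL genes (TBL16, TBL18, TBL36, TBL37, TBL38 and TBL39) had averages between -0.62 and 0.24.

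No beta-expansin or expansin-like gene passed in a heat contrast. The 3 tested EXPB genes had median changes of 0.71 in wild type and 0.69 in the knockout. EXPB3 read 205.0 and 366.4 in wild-type controls, 263.9 and 812.0 after heat, 455.8 and 390.5 in knockout controls and 712.5 and 680.1 after heat, an average change of 0.70 ± 0.36 (adjusted p = 0.208). EXPB1 averaged 1.10 ± 0.61, with signals from 3.9 to 198.7, and EXPB2 averaged 0.32 ± 0.33. EXLB1 read 121.0 and 148.3 in wild-type controls, 139.7 and 436.3 after heat, 148.2 and 111.0 in knockout controls and 249.5 and 266.6 after heat. It was higher without overlap in the knockout and overlapped in wild type, and its average change of 0.82 ± 0.33 did not pass (adjusted p = 0.117). Its wild-type change was 0.78 with all arrays (adjusted p = 0.435). It was 1.51 without heated wild-type replicate 1 and 0.05 without heated wild-type replicate 2.

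The 3 EXLA genes rested on the wild-type control arrays. EXLA1 read 1036.6 and 4599.1 in wild-type controls, 2069.0 and 1386.0 after heat, 5642.9 and 3367.4 in knockout controls and 1857.2 and 2885.9 after heat. EXLA2 read 86.7 and 1020.5 in wild-type controls, 237.0 and 604.2 after heat, 884.5 and 505.0 in knockout controls and 494.5 and 529.4 after heat. Replicate 1 was the low wild-type control for both, and none of the 3 genes passed at any contrast. The family's median in wild type was 0.24, which became -1.35 without wild-type control replicate 1 and 1.33 without replicate 2, so no direction is given. In the knockout it was -0.72, with changes from -0.90 to -0.37.

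**Figure D4:**
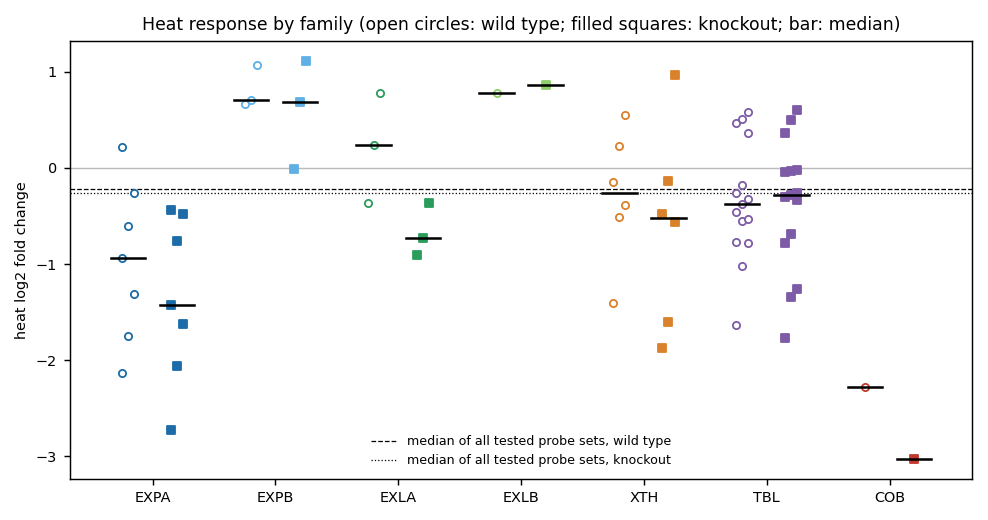
The y axis gives the heat log2 fold change of each tested member, grouped by family on the x axis, with open circles for wild type, filled squares for the knockout and bars for family medians. Dashed and dotted lines mark the median of all tested probe sets in wild type (-0.22) and in the knockout (-0.26); EXPA medians (-0.94 and -1.42) and COB lie below them and EXPB medians (0.71 and 0.69) above.

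Without both arrays of wild-type replicate 1, a setting added after the data had been seen, more members passed, as did more of all probe sets. In wild type COB, EXPA4, TBL45 and XTH33 then fell, 4 of 36 members beside 3.05% of all probe sets. In the knockout, whose own arrays were unchanged, COB, EXPA4, EXPA9, EXPA16, TBL23, TBL45 and XTH33 fell, 7 of 36 members beside 9.98% of all probe sets. On average over both genotypes 9 members fell beside 16.9% of all probe sets, which added EXLA1 and EXPA8 to those 7. EXLB1 at 1.13 ± 0.27 (adjusted p = 0.0174) and EXPB3 at 0.89 ± 0.25 (adjusted p = 0.0337) then rose, 2 of 36 beside 6.82% of all probe sets. Heated wild type and wild-type controls each had 1 array in this fit, so that lone array is assumed to vary like the other groups. Wild-type replicate 1 was chosen for removal because the wall genes were low on its control array. There COB lay at -2.08, XTH33 at -2.21, TBL45 at -2.44 and EXPA4 at -0.49 from the mean of the other controls. Leaving it out raises the wild-type control level of these genes by construction. Their wild-type calls in this fit, and their share beside that of all probe sets, are therefore no separate test of heat. In the knockout the fold changes were those of the main fit, and only the errors differed. Leaving out arrays on which the wall genes stood apart lowers the error of such genes by construction. The knockout and averaged calls in this fit, those of EXLB1 and EXPB3 among them, are therefore no separate test either.

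Calls in the knockout rested on its 4 arrays, and so did those of all probe sets. Far fewer of all probe sets fell in the knockout when any of these arrays was left out. The losses given here are therefore not particular to these genes. COB lost its knockout call without any of them, with changes from -3.44 to -2.61 and adjusted p from 0.0854 to 0.183. EXPA9 did too, with changes from -1.79 to -1.46 and adjusted p from 0.0908 to 0.177. EXPA4 did without either knockout control or without heated knockout replicate 1, with changes from -2.85 to -1.87 and adjusted p from 0.174 to 0.238. EXPA4 also missed the threshold without either wild-type control (adjusted p = 0.0619 and 0.0621) and under 5 other settings (adjusted p from 0.0572 to 0.08), and EXPA9 without the filter on dim probe sets (0.051) and under median centring (0.0573). Some knockout calls were gained when a wild-type array was left out, which changes only the error and not the fold change: TBL23 without either heated wild-type array (adjusted p = 0.0417 and 0.042) and XTH33 without either wild-type control (0.0307 and 0.0312). In the averaged contrast COB, EXPA4 and EXPA9 passed under all 17 alternatives.

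Other genes that build or trim the wall were taken from a list of families such as cellulose-synthase-like (CSL) and GH9 glucanase genes, of which 28 were named and 18 tested. In wild type none of the 18 passed, and 3 were lower at an unadjusted p under 0.05, beside 11.9% of all probe sets. In the knockout only CSLD2, a synthase known from tip-growing cells, fell, by 1.75 ± 0.44 (adjusted p = 0.0495), 1 of 18 beside 3.66% of all probe sets. Its signals were 447.2 and 1039.2 in wild-type controls, 240.7 and 332.0 after heat, 721.4 and 979.2 in knockout controls and 195.4 and 269.6 after heat. Averaged over genotypes 4 of the 18 fell (22.2%), beside 12.0% of all probe sets. They were CSLD2 at -1.47, the xyloglucan glucan synthases CSLC04 at -1.63 and CSLC5 at -1.40, and the mannan synthase CSLA03 at -1.07. The median of the 18 was -0.18 in wild type and -0.56 in the knockout. Of 24 growth regulators listed only 2 were named, the wall-sensing receptor kinases FER and THE1, with averages of -0.95 ± 0.31 (adjusted p = 0.0657) and -0.64 ± 0.37.

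Whether loss of HSA32 altered these genes was compared at each temperature. At 22 °C no member passed, nor did any probe set (0%), and at an unadjusted p under 0.05 there was only EXLA3, beside 0.515% of all probe sets. The knockout was the higher genotype for 31 of 36 members, beside 49.8% of all probe sets. The median log2 difference was 0.44 against 0.00 for all probe sets. With wild-type replicate 1 left out the knockout was the higher for 15 of 36, with a median of -0.05. Replicate 1 was left out because the wall genes were low on its control array, so this drop follows by construction. Without wild-type control replicate 2 the knockout was the higher for 31 of 36, with a median of 0.64. EXLA3 read 12.0 and 58.8 in wild type and 142.8 and 82.4 in the knockout, a difference of 1.20 ± 0.47 (unadjusted p = 0.0313, adjusted p = 1). It was 0.66 without wild-type control replicate 1, and 1.70 with an offset of 7.3 and 0.60 with one of 116. EXLA1 and TBL36 came next, at 0.98 ± 0.64 and 0.64 ± 0.38. Arrays did not overlap for 7 members that were higher in the knockout (11.7% of all probe sets) and 1, TBL25, that was lower (9.49%).

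After heat again no member passed, nor did any probe set (0%), and only EXPA16 had an unadjusted p under 0.05, beside 1.76% of all probe sets. EXPA16 read 671.9 and 90.3 in heated wild type and 50.1 and 31.0 in the heated knockout, a difference of -2.07 ± 0.82 (unadjusted p = 0.0336, adjusted p = 1). That difference was -0.79 ± 0.44 with wild-type replicate 1 left out and -3.34 without heated wild-type replicate 2. EXPA15 lay at -0.55 ± 0.32 and XTH32 at 0.98 ± 0.68, and XTH32 became -0.02 without heated wild-type replicate 1. Arrays did not overlap for 4 members that were higher in the knockout (9.94% of all probe sets) and 3 that were lower (11.5%).

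The interaction asked whether heat acted on a gene differently in the knockout. No member passed and none had an unadjusted p under 0.05, beside 0% and 0.553% of all probe sets. HSA32 did not pass either, at -6.39 ± 0.80 (limma adjusted p = 0.418). The smallest p-values belonged to EXLA3 (-1.51 ± 0.67, unadjusted p = 0.0503), EXPA15 (-0.97 ± 0.45) and XTH19 (-1.46 ± 0.86). For the genes that fell, the difference between genotypes was -0.75 for COB, with a 95% interval from -2.80 to 1.29, -0.59 for EXPA4, from -2.69 to 1.51, and -0.31 for EXPA9, from -1.36 to 0.74. With 2 arrays per group these intervals hold differences of more than 2-fold, so the 2 genotypes are not shown to respond alike.

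**Figure D5:**
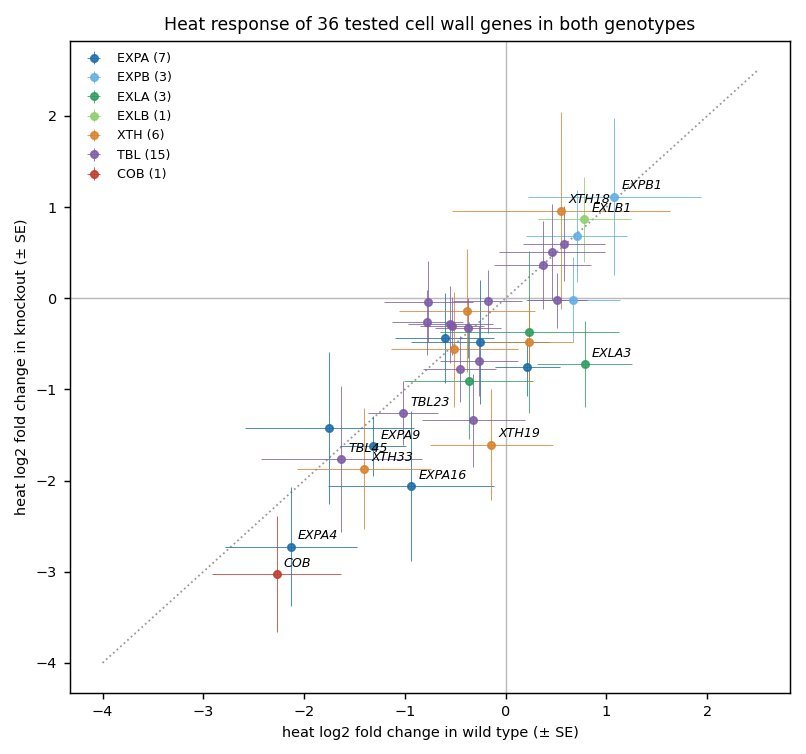
Each point is 1 of the 36 tested members, with its heat log2 fold change in wild type on the x axis and in the knockout on the y axis, bars for standard errors and colours for families; the dotted line marks equal change. COB (-2.27, -3.02) and EXPA4 (-2.13, -2.72) lie at the lower left and EXPB1 at the upper right, and no member's distance from the line passed the interaction test.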

How the data were processed

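Total RNA from 8 shoot samples was hybridised to 1 ATH1 array each. The authors deposited a linear intensity for every probe set; the sources used here do not name the software that summarised the probes. Every array had a 2% trimmed mean near 500 (500.04 to 500.07), and no detection calls were used. Titles gave groups and replicate numbers; for wild-type control replicate 1 the source field lacks the word control, and the title was followed.

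From 22810 probe sets, 64 controls were removed along with the dimmest 30% (mean signal 61.7 or lower), and 15919 were tested. A mean per group was fitted to log2(signal + 29.1), the offset being the 20th percentile of all values, with limma 3.58.1 under R 4.3.3 and a variance trend, giving 4 residual and 4.79 prior degrees of freedom. Fold changes on this scale understate changes of dim transcripts. P-values were two-sided and adjusted by Benjamini-Hochberg over all tested probe sets, with 0.05 as the threshold. Errors are standard errors from limma. The number of arrays limits the precision. The fit was run on simulated data with independent errors and no deviation shared by the genes of an array. That run therefore does not bear on the pattern of wild-type replicate 1.

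Names came from the platform annotation (13513 probe sets with 1 gene, 503 with several, 8730 unnamed here), and all 50 members matched a RefSeq gene table, used for names and neighbours only. Probe sets for several genes were not used (2 read expansins). Members and gene lists were chosen with earlier results of these data known. Genes were named where they passed in any contrast, were the brightest, highest or lowest of their family in a heat contrast, or had the 3 smallest p-values in a genotype contrast; the others were chosen after their values were seen. Alternatives were other offsets, filters and scalings, a replicate block and leaving out arrays. The main fit did not pair samples by replicate number. Deviations of same-numbered arrays correlated at 0.54 and 0.52 within a genotype but from -0.39 to -0.24 across genotypes. An effect shared by the control and heated arrays of 1 number within a genotype was therefore not fitted and may widen the errors. The crossed replicate block allowed for it.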

Additional observations from a re-analysis of the deposited data

Results flagged for a closer look

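TBL41, a dim member left out of the tests, had a mean signal of 72.0 over the 4 heated arrays and 20.6 over the 4 controls. It read 2.9 and 11.1 in wild-type controls, 59.0 and 19.6 after heat, 44.4 and 24.0 in knockout controls and 158.5 and 50.8 after heat. It is given here because its signal in data outside the tests was higher in heated than in control arrays. When all probe sets were kept, its average heat difference was 0.92 ± 0.33 on the log2 scale, which missed the threshold (limma adjusted p = 0.126).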

How the results depend on the processing

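Every call rests on 2 arrays per group with unknown detection, and dim genes such as EXPA4 after heat have changes that depend on the offset. Among single-gene values under 17 alternatives, 843 kept their direction and their side of the threshold, 27 changed sign, 35 lost a call and 21 gained one. In wild type the number of members that fell was 0, and 0 to 2 when 1 array was left out; 0 to 1 rose. In the knockout it was 3, but 1 without the filter and 1 under median centring, and 0 to 5 when 1 array was left out. On average over genotypes it was 5, but 3 under quantile normalization, 3 under median centring and 3 to 6 when 1 array was left out, where 0 to 2 rose. With both arrays of wild-type replicate 1 left out, the 3 counts that fell were 4, 7 and 9, and 2 rose on average. With the replicate number as a block, no member fell in wild type, 2 fell in the knockout and 6 on average. Of all probe sets 0.308%, 1.83% and 9.29% fell with this block. EXPA4 in the knockout (adjusted p = 0.08) and XTH33 on average (adjusted p = 0.0649) lost their calls. In the knockout 3.66% of all probe sets fell in the main fit, 1.47% without the filter and 1.44% under median centring. Averaged over genotypes 12.0% fell in the main fit, 4.82% under median centring and also fewer under quantile normalization. These shares moved as well when 1 array was left out, so the changes in the counts are not particular to the wall genes. With a crossed replicate block, chosen after the data had been seen, 4, 6 and 9 members fell and 2 rose on average, beside 5.13%, 12.2%, 23.7% and 8.68% of all probe sets.

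The knockout median of all members moved from -0.46 to -0.29 with an offset of 116, -0.26 under quantile normalization and -0.13 under median centring, that of TBL to 0.02 and 0.04 under the last 2 and that of XTH to -0.19 under median centring. Leaving out 1 array put the EXLA median in wild type between -1.35 and 1.33, and in the knockout the EXPA median between -1.79 and -0.87 and the EXPB median between -0.03 and 0.79. Signs turned for single genes that had not passed. When 1 array was left out, heat changes in wild type ran from -1.43 to 0.69 for EXLA1 (-1.71 without both arrays of wild-type replicate 1), -0.05 to 1.47 for EXPB3, -1.51 to 0.49 for XTH16 and -1.33 to 2.43 for XTH18. In the knockout they ran from -0.76 to 0.02 for EXLA2, -0.03 to 2.26 for EXPB1 and -0.34 to 0.31 for EXPB2, which was 0.16 under quantile normalization and 0.31 under median centring, where TBL25 was 0.02. Genotype differences ran from -0.08 to 2.04 for EXLA1 at 22 °C and -0.02 to 1.98 for XTH32 after heat. Interactions ran from -1.85 to 0.35 for COB, -1.45 to 0.26 for EXPA4, -0.49 to -0.13 for EXPA9, -0.57 to 0.09 for TBL23 and -1.64 to 0.71 for XTH33. In the fit that left out both arrays of wild-type replicate 1, interactions were 0.25 for COB, 0.46 for EXPA4, 0 for EXPA9 and 0.94 for XTH33, the heat changes in wild type were -0.02 for TBL32 (up to 0.91 when 1 array was left out) and -0.33 for XTH18, and the genotype differences were -0.08 for EXLA1 and -0.02 for XTH32. The cause was not tested. The mean of all probe sets of a gene gave no separate value, since each member had 1 probe set.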

Other observations

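Adjacent genes in the RefSeq list made up 4 pairs of members, of which 3 had both genes tested: EXLA1 with EXLA3, TBL28 with TBL30 and XTH18 with XTH19. TBL28 read 130.9 and 82.0 in knockout controls and 57.1 and 3.2 after heat, while its neighbour TBL30 read 53.3 and 45.3 in knockout controls and 109.5 and 59.8 after heat. The arrays of both genes were parted by temperature in the knockout, in opposite directions, with changes of -1.34 ± 0.51 (limma adjusted p = 0.157) and 0.50 ± 0.53 (adjusted p = 0.609). In wild type the changes were -0.32 ± 0.51 and 0.46 ± 0.53. Neither gene passed, and the difference between neighbours was not tested. Probe sequences were not used here, so whether the probe sets of such related genes read each other's transcripts was not tested.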
